A study of Mus musculus with 29 samples.

Results

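Gene expression in the prefrontal cortex after MPTP was compared between 2 transgenic mouse lines, with 2 arrays of AChE-S mice set against 2 arrays of AChE-R mice. The arrays were chosen by their titles, and they make up 4 of the 29 arrays analysed. AChE-S mice carry human acetylcholinesterase in its synaptic variant, AChE-R mice carry the human readthrough variant, and both lines have the FVB/N genetic background. All 4 arrays come from mice exposed to MPTP, given as MPTP-HCl in 4 injections of 20 mg/kg with 2 h between them, for a total of 80 mg/kg, and the cortex was dissected 4 days after injection. FVB/N mice, the parent strain, received the same exposure and have 2 arrays of the same region, which are shown for orientation. Unexposed, naive mice of both lines supply 4 prefrontal arrays per line and 2 caudate-putamen arrays per line. MPTP-exposed caudate-putamen has 2 arrays of AChE-S and 1 array of AChE-R mice. The sources used here do not give the promoter of the transgenes, the number of founder lines, the number of mice behind an array, or their age and sex. Nothing says that replicate arrays came from separate mice, so the p-values measure only the spread between arrays, which may be technical. This spread was pooled over the 12 groups of all 29 arrays, the naive and caudate-putamen ones included.

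Acetylcholinesterase ends cholinergic signalling by splitting acetylcholine. Alternative splicing of its transcript gives the synaptic S form, which assembles into membrane-anchored multimers, and the R form, a soluble monomer that is known to accumulate after stress. MPTP is converted in glia to a toxic cation that enters dopamine neurons through their transporter and blocks mitochondrial complex I. Injured brain also mounts an acute-phase response, in which cytokines of the interleukin 6 family signal through STAT3 and C/EBP factors to genes such as Lcn2, and a glucocorticoid response driven by the adrenal stress hormone.

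The values are log2 signals, so a difference of 1 is a 2-fold difference. Each is given with its standard error from a linear model in limma over all 29 arrays, which leaves 16 residual degrees of freedom, and a difference is called where the Benjamini-Hochberg adjusted p over 22626 transcripts is under 0.05. The 4 arrays had median log2 signals of 7.77, and the replicates of each group had a median absolute difference of 0.09. The prefrontal label was checked against markers in the S and R arrays after MPTP. The cortical transcription factor gene Neurod6 read 9.57 to 9.82 in the 4 prefrontal arrays and 7.39 to 7.60 in the 3 caudate-putamen arrays, and the dopamine receptor gene Drd2 read 6.25 to 6.46 and 11.16 to 11.33. Xist (6.93 to 7.12) and the Y-linked gene Eif2s3y (8.71 to 9.03) were uniform over the prefrontal MPTP arrays. Of the 29 arrays, 6 naive prefrontal arrays (replicates 1 and 2 of each strain) stood apart in sex-linked genes: Eif2s3y was at 3.42 to 3.83 in these 6 and 8.41 to 9.20 in the other 23, and Kdm5d, also on the Y chromosome, was at 3.58 to 4.32 against 7.20 to 7.76. The naive comparisons in the prefrontal cortex therefore mix arrays that differ in these genes. So does the later contrast that sets the difference after MPTP against the naive one. Without these 6 arrays the naive count was 1084 transcripts, against 4210 with them. They enter the MPTP comparison only through the estimate of spread, and counts are also given without them. Mouse Ache read 9.40 and 9.13 in AChE-S, 9.21 and 9.28 in AChE-R and 9.03 and 9.17 in FVB/N mice. That probe set reports the mouse gene (log2 S minus R 0.02 ± 0.14) and says nothing on the human transgenes.

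After MPTP, several genes of the acute-phase and glucocorticoid-induced lists were higher in AChE-S than in AChE-R prefrontal cortex. A second set of genes, mostly lower in AChE-S, differed in the same direction in naive mice and in the caudate-putamen. The model called 257 transcripts, or 1.14% of those tested, with 129 higher (0.57%) and 128 lower (0.566%) in AChE-S, and 2301 passed at an unadjusted p under 0.05. With 1 probe set per gene, 154 of 12393 genes were called (1.24%), of which 79 were higher (0.637%) and 75 lower (0.605%). In each of these 154 genes, both S arrays lay on 1 side of both R arrays. The genes were called on these same 4 arrays, so this separation adds no evidence. The median difference was 0.61 among the higher and -0.64 among the lower genes, and 17 higher and 9 lower genes differed by more than 2-fold. The median over all transcripts was 0. Without the 6 naive arrays that stood apart, 725 transcripts (3.2%) and 423 genes (3.41%, with 1.72% higher and 1.69% lower) were called, and these include all 154. Leaving out 1 of the 4 arrays lowered the number of called transcripts to 130 (without S 1), 82 (without S 2), 73 (without R 1) or 86 (without R 2). Of the 154 genes, 23 were called in each of these 4 fits, 9 of them higher and 14 lower, and 63 in none of them.

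Lcn2, which encodes a secreted lipocalin that withholds iron from bacteria, had the largest difference. It read 9.74 and 10 in AChE-S, 5.67 and 6.57 in AChE-R, and 10.27 and 9.21 in FVB/N mice. The S arrays lay within the range of the FVB/N arrays and the R arrays far below both. The log2 difference was 3.75 ± 0.34, or 13.5-fold higher in AChE-S (adjusted p = 5.95e-06), and it was called with any of the 4 arrays left out (worst adjusted p = 0.00053). In naive prefrontal cortex Lcn2 read 4.89 to 5.08 in AChE-S and 4.65 to 5.51 in AChE-R mice, so both R arrays after MPTP lay above the naive range but far closer to it than the S arrays.

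The calprotectin subunits S100a8 and S100a9, calcium-binding proteins of neutrophils and inflamed tissue, followed the same order. S100a8 read 8.17 and 8.68 in AChE-S, 5.82 and 5.91 in AChE-R and 8.65 and 6.72 in FVB/N mice, a difference of 2.56 ± 0.52 (adjusted p = 0.0151). S100a9 read 8.03 and 8.37 in AChE-S, 5.90 and 6.05 in AChE-R and 8.70 and 7.07 in FVB/N mice, a difference of 2.23 ± 0.43 (adjusted p = 0.0105). In naive AChE-R mice S100a8 read 5.32, 6.04, 4.84 and 4.83, and S100a9 read 5.78, 6.43, 5.57 and 5.81. The R arrays after MPTP lay below naive R 2, one of 6 naive arrays that stood apart, and above the other 3. Each of the 4 arrays was needed for these calls, since leaving out any 1 gave an adjusted p over 0.05, with a worst value of 0.2 for S100a8 and 0.147 for S100a9. Among the 8 blood cell markers measured, S100a8, S100a9 and the immunoglobulin gene Ighm were called higher and 0 lower. Over all genes, 0.637% were called higher and 0.605% lower. Ighm was also called higher in naive AChE-S mice, in the prefrontal cortex (1.76) and in the caudate-putamen (1.72). The neutrophil granule gene Ngp read 6.77 and 7.27 in AChE-S, 6.66 and 6.65 in AChE-R and 7.64 and 6.68 in FVB/N mice. Ngp (0.36, adjusted p = 0.673), the granule gene Camp (0.16) and the haemoglobin gene Hba-a1 (-0.11) were not called. The part of blood cells in the calprotectin difference was not tested. In tissue RNA, a larger number of cells that make a transcript and more of it per cell cannot be told apart.

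Cebpd, Osmr and Lrg1 were higher too, while the acute-phase transcription factor genes Stat3 (0.17, adjusted p = 0.656) and Cebpb (0.47, adjusted p = 0.288) were not called. Cebpd, a C/EBP transcription factor of this response, read 8.46 and 8.68 in AChE-S, 6.59 and 7.26 in AChE-R and 8.27 and 7.86 in FVB/N mice (difference 1.64 ± 0.28, adjusted p = 0.00317). Osmr, the receptor of the interleukin 6 family cytokine oncostatin M, read 7.93 and 7.97 in AChE-S, 6.50 and 6.93 in AChE-R and 8.14 and 7.73 in FVB/N mice (1.24 ± 0.18, adjusted p = 0.000837). The secreted glycoprotein gene Lrg1 read 9.02 and 9.33 in AChE-S, 7.85 and 7.99 in AChE-R and 9.19 and 8.65 in FVB/N mice (1.25 ± 0.20, adjusted p = 0.00258). In all these genes the FVB/N arrays lay with the S arrays or between the lines, above both R arrays. Cd14, the lipopolysaccharide co-receptor of myeloid cells, read 8.50 and 8.83 in AChE-S, 7.37 and 7.44 in AChE-R and 8.90 and 8.01 in FVB/N mice (1.26 ± 0.22, adjusted p = 0.00508). The adhesion molecule gene Icam1 (0.81 ± 0.17), the interleukin 1 receptor Il1r1 (0.60 ± 0.11), the cytokine receptor chain Csf2rb (0.87 ± 0.18) and the protease inhibitor A2m (0.79 ± 0.14) were also called higher. Il1r1, Csf2rb and A2m belong to no list and were picked after their values were seen. Called genes of the same kind also lay in the other direction: the alarmin cytokine Il33 (-0.71 ± 0.15), the chemokine Ccl17 (-0.66 ± 0.11) and the chemokine-scavenging receptor Ackr2 (-0.57 ± 0.12) were lower. Of the higher genes, Osmr was called whichever array was left out. Cebpd was lost without S 2 (adjusted p = 0.0634) or R 1 (0.114), Lrg1 without S 2 (0.0637) or R 1 (0.054), and Cd14, Icam1, Il1r1 and A2m held in 1 of the 4 fits and Csf2rb in 0. Of the lower ones, Il33 and Ccl17 held in 2 and Ackr2 in 1. A second, dimmer probe set of Cebpd (mean 5.35, against 7.33 for the one used) gave 0.11, and one of Osmr gave 0.45. Neither was called.

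**Figure D1:**
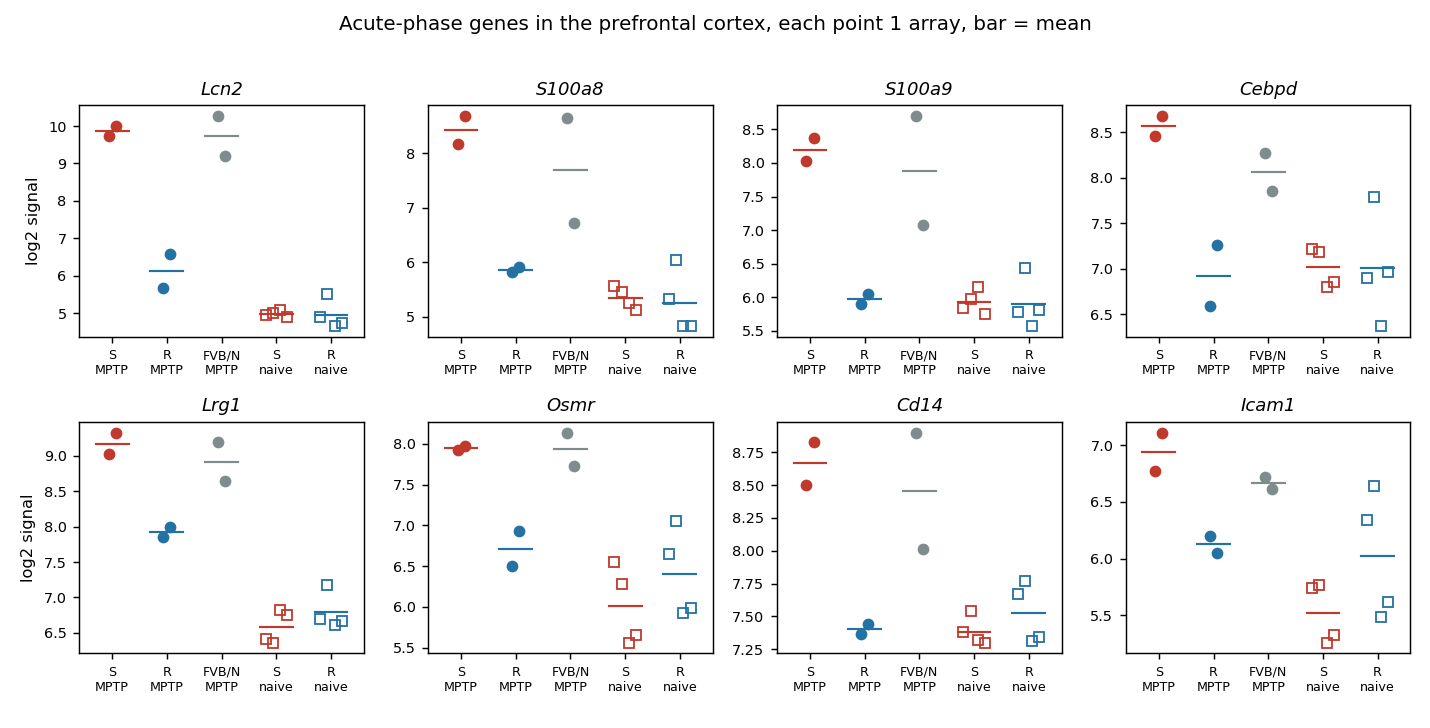
Log2 signal of 8 acute-phase and inflammatory genes in the prefrontal cortex, with 1 point per array and a bar at the group mean. Filled circles are AChE-S, AChE-R and FVB/N mice after MPTP (2 arrays each), and open squares are naive AChE-S and AChE-R mice (4 arrays each). The Lcn2 arrays of AChE-S mice after MPTP read 9.74 and 10, and those of AChE-R mice 5.67 and 6.57.

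The acute phase and inflammation list had 4 of 16 measured members called higher (Lcn2, Lrg1, Osmr and Icam1) and 0 lower, with a median of 0.30, beside 0.637% of all genes called higher. Without the 6 naive arrays 5 were called higher, beside 1.72%. The cytokine genes themselves did not pass: Il6 (0.04), Il1b (0.11), Tnf (0.20) and Ccl2 (-0.01). The STAT3 feedback inhibitor Socs3 read 7.71 and 7.80 in AChE-S, 7.25 and 7.33 in AChE-R and 7.80 and 7.38 in FVB/N mice, and missed the threshold on its brightest probe set (0.46 ± 0.12, adjusted p = 0.0576). A dim one (mean 4.97) passed, at 1.31.

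Promoters of S100a9 and Icam1 are shown because both genes belong to the called inflammatory set and both windows hold letters of the factors named above. The sequences are the 250 bases before the RefSeq transcription start, on the strand of the gene, in build GRCm38.p6. S100a9 lies on the minus strand at chr3:90695722-90695971 and Icam1 on the plus strand at chr9:21015690-21015939. Capitals mark the C/EBP letters TTNNGNAAT or, in Icam1 only, the STAT letters TTCNNNGAA, both searched on either strand.
S100a9: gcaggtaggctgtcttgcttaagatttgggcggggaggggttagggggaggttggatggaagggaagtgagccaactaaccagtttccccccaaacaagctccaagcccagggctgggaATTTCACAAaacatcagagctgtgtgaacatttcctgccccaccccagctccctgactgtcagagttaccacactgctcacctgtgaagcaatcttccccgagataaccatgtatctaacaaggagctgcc
Icam1: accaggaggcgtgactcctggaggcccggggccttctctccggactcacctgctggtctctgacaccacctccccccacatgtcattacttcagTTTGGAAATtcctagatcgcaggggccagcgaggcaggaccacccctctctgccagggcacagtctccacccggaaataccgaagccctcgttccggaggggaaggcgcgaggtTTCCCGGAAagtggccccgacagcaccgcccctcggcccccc
The C/EBP letters were found in 11 of 58 higher and 5 of 59 lower called genes with a promoter in the table, and in 10.3% of 27025 promoters. The STAT letters were in 5 of 58 higher and 5 of 59 lower genes, against 7.18%. The NF-kB letters, GGGAA and CC with 3 bases between, were in 4 higher and 3 lower genes, against 4.81%. A match is a description of the window and was not tested as a binding site.

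Several genes induced by glucocorticoids were higher in AChE-S mice. Of 18 measured, 5 were called higher (Lcn2, Cebpd, Cdkn1a, Fkbp5 and Errfi1), 0 lower, and the median was 0.53, beside 0.637% of all genes called higher. Lcn2 also counts among the calls of the acute phase list, so the 2 lists are not separate. With the 6 naive arrays left out 10 were called, all higher, beside 1.72%. Errfi1, a feedback inhibitor of the EGF receptor, was lost when any array was left out. Fkbp5, a co-chaperone that restrains the glucocorticoid receptor and is itself induced by it, read 10.58 and 10.63 in AChE-S, 9.70 and 9.72 in AChE-R and 10.65 and 10.53 in FVB/N mice. The S and FVB/N arrays were at 1 level and both R arrays below them. Naive R arrays read 9.59, 9.79, 9.24 and 9.39, so the R arrays after MPTP lay below naive R 2, one of the 6 arrays that stood apart, and above the other 3. The difference was 0.90 ± 0.15 (1.86-fold, adjusted p = 0.00275), called with any array left out (worst adjusted p = 0.0473). Cdkn1a, which encodes the cell cycle inhibitor p21, read 10.37 and 10.57 in AChE-S, 8.83 and 9.38 in AChE-R and 10.14 and 9.75 in FVB/N mice (1.37 ± 0.27, adjusted p = 0.0134). Its call held only without R 2 (adjusted p = 0.0264). The lipid droplet gene Plin4 had a difference of 1.32 (adjusted p = 0.0634) and the growth inhibitor Ddit4 0.77 (adjusted p = 0.145), neither past the threshold. Other members not called in the main fit included Tsc22d3 (0.57, adjusted p = 0.196), Sgk1 (0.46, 0.182), Klf9 (0.30, 0.193) and Per1 (0.30, 0.727).

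Acer2, an alkaline ceramidase of the Golgi, was 3.22-fold higher, at 9.16 and 9.33 in AChE-S, 7.49 and 7.63 in AChE-R and 8.71 and 8.76 in FVB/N mice (1.69 ± 0.15, adjusted p = 5.95e-06). Rasd1, a dexamethasone-induced small GTPase, was 3.22-fold higher as well, at 7.82 and 7.88 in AChE-S, 6.30 and 6.03 in AChE-R and 6.59 and 6.79 in FVB/N mice (1.68 ± 0.25, adjusted p = 0.00145). Both calls held with any array left out. Acer2 and Rasd1 were also called higher in naive AChE-S mice, in the prefrontal cortex (0.48 and 0.65) and in the caudate-putamen (0.91 and 1.45). Without the 6 naive arrays the prefrontal call of Rasd1 was lost (0.60, adjusted p = 0.194). A dim probe set of Acer2 (mean 4.10) gave -0.05.

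Immediate early genes, which neurons switch on when active, had 1 of 21 called, the AP-1 subunit Fosb. It read 8.78 and 8.48 in AChE-S, 7.21 and 7.34 in AChE-R and 7.88 and 8.21 in FVB/N mice (1.35 ± 0.27, adjusted p = 0.0126), and was not called when any array was left out. The list median was 0.51, and 0.637% of all genes were called higher. In the fit without the 6 naive arrays 3 were called, all higher, beside 1.72% of all genes. Single arrays spread widely in this list: Arc, a postsynaptic protein gene, read 11.97 and 11.76 in AChE-S, 9.86 and 10.87 in AChE-R and 10.55 and 11.75 in FVB/N mice (adjusted p = 0.194). Egr1 had a difference of 0.70 ± 0.24 (adjusted p = 0.245). Outside the list, and picked after their values were seen, the cyclooxygenase gene Ptgs2 (1.10 ± 0.21), the transcription factors Atf3 (0.98 ± 0.20) and Nfil3 (1.09 ± 0.26), and 2 genes of dense-core vesicles, the secretogranin Scg2 (0.62 ± 0.12) and the prohormone convertase Pcsk1 (0.55 ± 0.13), were called higher. Their adjusted p ran from 0.00979 (Ptgs2) to 0.0473 (Nfil3). None of these calls held in every fit that left out an array, though the differences kept their sign. In naive AChE-S prefrontal cortex the immediate early list had 11 of 21 called higher and 1 lower, with a median of 0.48, beside 19.2% of all genes called there, 4.78% higher and 14.4% lower. Without the 6 arrays, 3 were higher and 1 lower there, beside 1.61% and 3.86% of all genes.

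**Figure D2:**
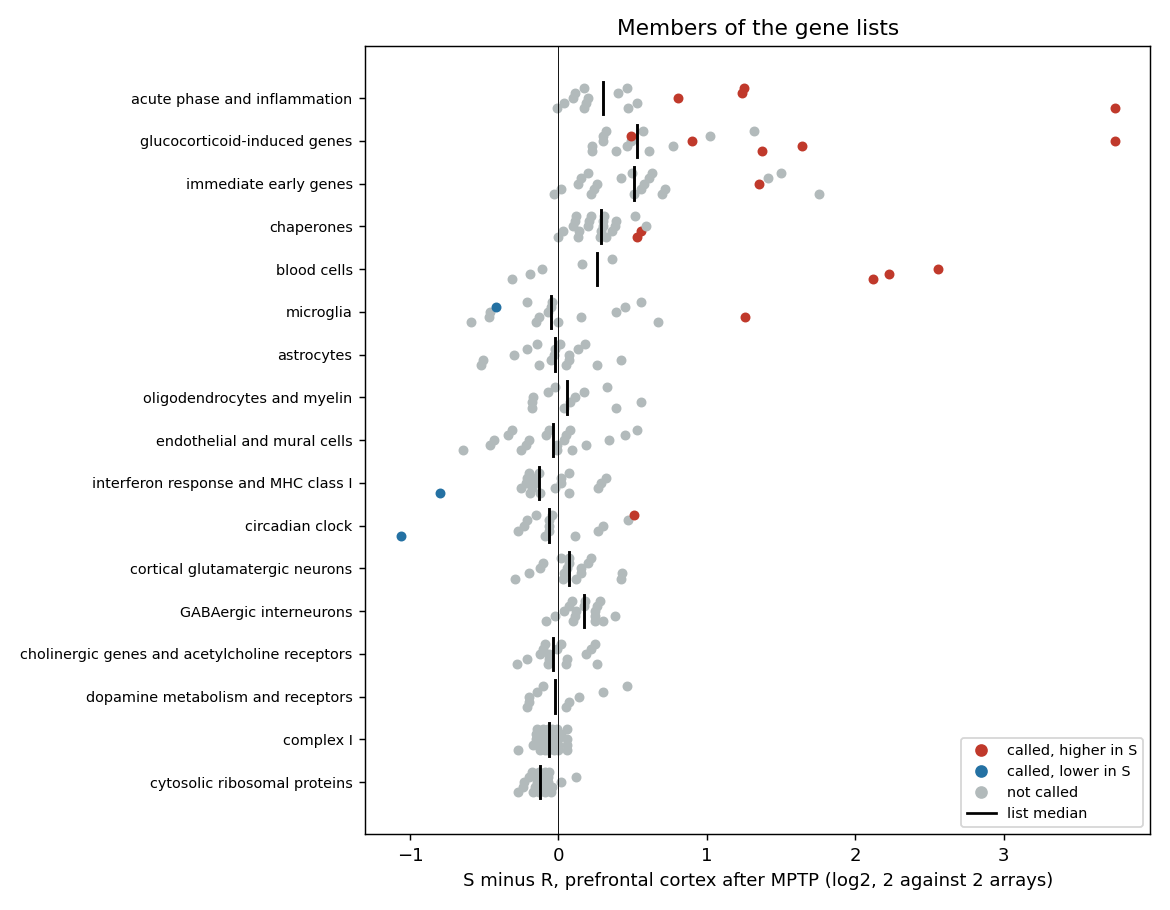
Log2 difference, AChE-S minus AChE-R, in the prefrontal cortex after MPTP (2 arrays each) for the measured members of 17 gene lists, with 1 point per gene and a black bar at the list median. Red points were called higher and blue points lower in AChE-S. The glucocorticoid-induced genes had a median of 0.53, the acute-phase genes 0.30 and the cytosolic ribosomal protein genes -0.12.

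Hspa5, the main Hsp70 chaperone of the endoplasmic reticulum, where secreted and membrane proteins fold, was higher in AChE-S. It read 12.02 and 12.11 in AChE-S, 11.50 and 11.58 in AChE-R and 12.14 and 12.28 in FVB/N mice (0.53 ± 0.09, 1.44-fold, adjusted p = 0.00508). Pdia6, Xbp1, Calr and Manf were also called. They belong to no list used here and were picked after their values were seen, so they carry no weight as a group. The disulfide isomerase Pdia6 read 10.41 and 10.25 in AChE-S, 9.89 and 9.82 in AChE-R and 10.57 and 10.50 in FVB/N mice (0.47 ± 0.09). Xbp1, a transcription factor of the unfolded protein response, read 11.40 and 11.44 in AChE-S, 10.98 and 11.11 in AChE-R and 11.47 and 11.51 in FVB/N mice (0.38 ± 0.07). The lectin chaperone calreticulin, Calr, read 12.49 and 12.50 in AChE-S, 12.15 and 12.23 in AChE-R and 12.51 and 12.48 in FVB/N mice (0.30 ± 0.07). Manf, a secreted neurotrophic factor of stressed endoplasmic reticulum, differed by 0.40 ± 0.09. In each of these 5 genes the FVB/N arrays lay near or above the S level, with R lowest. Xbp1 and Hspa5 held in 2 of the 4 fits that left out an array, Pdia6 in 1, and Manf and Calr in 0. In naive prefrontal cortex Hspa5 (0.29), Pdia6 (0.24), Xbp1 (0.21) and Manf (0.26) were called higher in AChE-S as well, and Calr was not (0.08, adjusted p = 0.255). Without the 6 arrays the naive call held for Hspa5 (adjusted p = 0.0236) and was lost for Pdia6 (0.0968), Xbp1 (0.0872) and Manf (0.0552).

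Of the 23 measured chaperones of all compartments, Hspa5 and the Hsp40 gene Dnajb5 (0.56 ± 0.13, adjusted p = 0.0392) were called higher and 0 lower, with a median of 0.29. Over all genes, 0.637% were called higher. Dnajb5 was not called when any array was left out. With the 6 naive arrays left out 6 were called, all higher, beside 1.72% of all genes. The Hsp110 gene Hsph1 (0.36, adjusted p = 0.0571) and the endoplasmic Hsp90 gene Hsp90b1 (0.31, adjusted p = 0.0949) were just outside the threshold.

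The promoters of Hspa5, Pdia6 and Calr are printed because all 3 hold the endoplasmic reticulum stress response element, the letters CCAAT and CCACG with 9 bases between, on either strand, which is known as a site of NF-Y together with ATF6 or XBP1. Capitals mark it. Each line gives the 250 bases before the RefSeq start on the strand of the gene, in build GRCm38.p6: Hspa5 on the plus strand at chr2:34771840-34772089, Pdia6 on the plus strand at chr12:17266339-17266588 and Calr on the minus strand at chr8:84846932-84847181.
Hspa5: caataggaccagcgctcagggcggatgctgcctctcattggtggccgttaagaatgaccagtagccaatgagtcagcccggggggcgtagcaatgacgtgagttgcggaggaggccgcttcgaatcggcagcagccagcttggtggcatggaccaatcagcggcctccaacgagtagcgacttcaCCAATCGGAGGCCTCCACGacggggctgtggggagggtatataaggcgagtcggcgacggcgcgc
Pdia6: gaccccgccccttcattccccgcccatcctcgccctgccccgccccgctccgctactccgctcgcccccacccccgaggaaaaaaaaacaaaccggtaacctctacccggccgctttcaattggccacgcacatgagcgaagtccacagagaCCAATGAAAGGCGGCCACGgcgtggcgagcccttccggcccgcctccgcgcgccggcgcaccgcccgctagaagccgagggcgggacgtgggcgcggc
Calr: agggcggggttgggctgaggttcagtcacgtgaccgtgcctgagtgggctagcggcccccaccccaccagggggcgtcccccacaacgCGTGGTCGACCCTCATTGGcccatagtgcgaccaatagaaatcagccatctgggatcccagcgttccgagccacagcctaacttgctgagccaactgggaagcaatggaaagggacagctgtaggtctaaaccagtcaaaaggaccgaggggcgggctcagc
In Calr the capitals read on the opposite strand. The letters were present in 3 of 58 higher and 0 of 59 lower called genes with a promoter in the table, and in 0.122% of 27025 promoters (33 genes). They overlapped no other motif searched in these 3 windows. The window of Xbp1 did not hold them. As above, a match describes the window and was not tested as a binding site.

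Cirbp, an RNA-binding protein gene induced by mild cold, was 1.84-fold lower in AChE-S. It read 9.39 and 9.41 in AChE-S, 10.27 and 10.29 in AChE-R and 9.35 and 9.62 in FVB/N mice (-0.88 ± 0.09, adjusted p = 3.14e-05), and was called with any array left out. The R arrays after MPTP were at the level of naive R mice (10.19 to 10.30), and the S and FVB/N arrays after MPTP lay below it. The clock output factor Dbp read 10.49 and 10.39 in AChE-S, 11.57 and 11.44 in AChE-R and 11.03 and 11.23 in FVB/N mice (-1.06 ± 0.17, adjusted p = 0.00231), and was lost only without R 1 (adjusted p = 0.052). The core clock activator Arntl was 1.42-fold higher in AChE-S, at 9.71 and 9.67 in AChE-S, 9.25 and 9.12 in AChE-R and 9.52 and 9.41 in FVB/N mice (0.51 ± 0.12, adjusted p = 0.0372), and was not called when any array was left out. These were the 2 of 15 clock genes called, beside 1.24% of all genes. Per1 (0.30), Per2 (0.11) and Nr1d1 (-0.06) were not, and the sources used here do not state the hour of dissection.

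The interferon list had 1 of 19 called, Ifit3, an interferon-induced inhibitor of viral translation. It read 6.45 and 6.54 in AChE-S, 7.29 and 7.30 in AChE-R and 7.13 and 6.96 in FVB/N mice (-0.80 ± 0.08, adjusted p = 1.69e-05), and held with any array left out. The related Ifit1 (-0.22) and Ifit2 (-0.13) were not called, and the list median was -0.13. Over all genes, 0.605% were called lower.

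**Figure D3:**
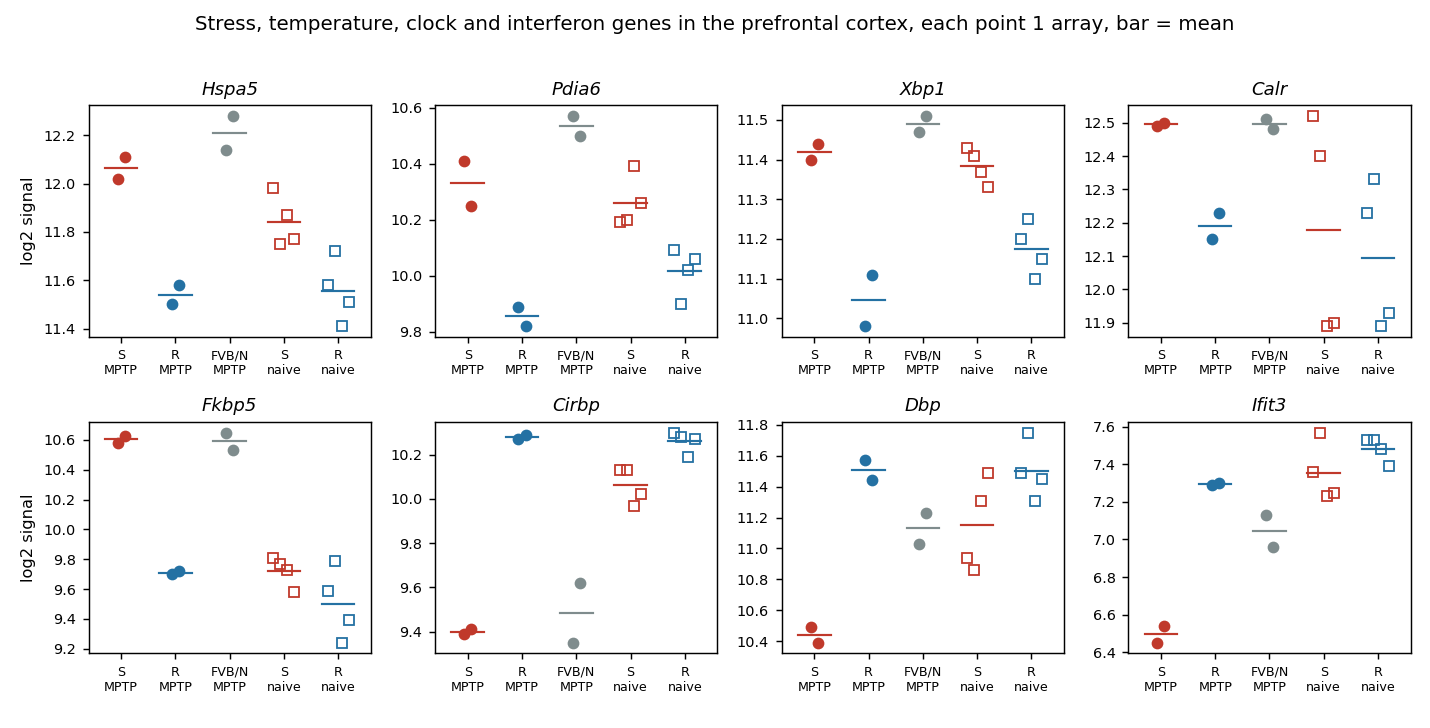
Log2 signal of 8 genes of protein folding, glucocorticoid, cold, clock and interferon responses in the prefrontal cortex, with 1 point per array and a bar at the group mean. Filled circles are AChE-S, AChE-R and FVB/N mice after MPTP, and open squares are naive AChE-S and AChE-R mice. The AChE-R arrays after MPTP were lowest for Hspa5 (11.50 and 11.58) among the 3 MPTP groups and highest for Cirbp (10.27 and 10.29).

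Markers of brain cell types had few calls between the lines, beside 1.24% of all genes called. Astrocyte markers had 0 of 17 called (median -0.02) and a mean log2 signal of 10.66 to 10.68 in AChE-S and 10.64 to 10.78 in AChE-R arrays. Gfap, the astrocyte filament gene, read 9.72 and 9.69 in AChE-S, 10.02 and 10.42 in AChE-R and 10.39 and 9.94 in FVB/N mice (-0.52 ± 0.22, adjusted p = 0.416), and a second Gfap probe set gave 0.06. Microglial markers had Cd14 higher and the lysosomal gene Cd68 lower (-0.42 ± 0.10, adjusted p = 0.049) among 17, with a median of -0.05. Cd68 was not called when any array was left out. The complement genes C1qb (0.67), C1qc (0.56) and C1qa (0.45), and on the other side Trem2 (-0.47), Aif1 (-0.46) and P2ry12 (-0.59), were not called, and the homeostatic marker Tmem119 differed by 0. Without the 6 naive arrays 1 microglial marker was called higher and 4 lower, beside 1.72% and 1.69% of all genes, since Aif1 (adjusted p = 0.0149), P2ry12 (0.0201) and Trem2 (0.0329) joined Cd68. Oligodendrocyte (0 of 12), endothelial and mural (0 of 20), meningeal (0 of 15), choroid plexus (0 of 8), striatal (0 of 11), cortical glutamatergic (0 of 17), interneuron (0 of 17) and thalamic (0 of 11) markers had no call. Without the 6 arrays Sox9 of astrocytes (-0.51, adjusted p = 0.00399) and Lum of meninges (-0.56, 0.0201) were called lower, and Vwf of endothelium (0.53, 0.0496) and Tac1 of striatum (0.41, 0.0155) higher.

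Markers of the olfactory bulb, which lies beside the dissected cortex, had 0 of 8 called but varied between arrays. The bulb cadherin gene Cdhr1 read 9.76 and 10.25 in AChE-S, 8.24 and 10.19 in AChE-R and 9.51 and 6.98 in FVB/N mice. R 1 and FVB/N 2 were low. Th, tyrosine hydroxylase of dopamine synthesis, which bulb neurons also express, read 8.95 and 9.19 in AChE-S, 7.87 and 9.36 in AChE-R and 8.64 and 6.94 in FVB/N mice (0.46 ± 0.61, adjusted p = 0.955), and turned to -0.29 without R 1. The part of dissection in single genes was not tested.

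Genes nearest to the transgene and the toxin were not called. Cholinergic genes and acetylcholine receptors had 0 of 16 called (median -0.03), with Bche, the related butyrylcholinesterase, at 0.05 ± 0.09 and the vesicular transporter Slc18a3 at -0.10 ± 0.17. Dopamine metabolism and receptors had 0 of 10, complex I 0 of 33 (median -0.06), cytosolic ribosomal proteins 0 of 24 (median -0.12), splicing factors 0 of 34, glutamate and GABA receptors 0 of 18 and potassium channels 0 of 23. At an unadjusted p under 0.05, 2301 transcripts of the whole array passed. At the adjusted threshold, 0.637% of all genes were called higher and 0.605% lower. Metallothioneins and antioxidant enzymes had 1 of 19, glutathione reductase, Gsr (0.38 ± 0.08, adjusted p = 0.0186), which was lost when any array was left out.

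The S minus R difference after MPTP was then set against the same difference in naive prefrontal cortex. The limma interaction contrast called 15 transcripts (0.0663%), 13 with a more positive difference after MPTP (0.0575%) and 2 with a more negative one (0.00884%), and 2829 passed at an unadjusted p under 0.05. Lcn2 had the largest, 3.72 ± 0.41 (adjusted p = 0.000521), beside a naive difference of 0.03. Osmr (1.63 ± 0.22, adjusted p = 0.00418), Icam1 (1.31 ± 0.21, adjusted p = 0.0148) and Lrg1 (1.46 ± 0.25, adjusted p = 0.0287) had naive differences of -0.39, -0.50 and -0.20. Acer2 (1.21 ± 0.18) and Tcim (1.00 ± 0.17), a regulator of transcription and immunity, also differed. Ifit3 (-0.67 ± 0.10) and Cirbp (-0.68 ± 0.11) were the 2 negative ones. Cebpd (1.63, adjusted p = 0.0809), Cd14 (1.40, adjusted p = 0.0704), S100a8 (2.47, adjusted p = 0.193) and S100a9 (2.19, adjusted p = 0.166) were not called. Of the 15, 9 were also called without the 6 naive arrays, a fit that called 54 (0.239%), while Lrg1 (adjusted p = 0.0575) and Cirbp (0.0616) were not. The count rests on single arrays: it was 1 without R 1, 5 without R 2, 8 without S 1 and 3 without S 2 of the MPTP arrays, and 8 with the replicate number as a block.

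**Figure D4:**
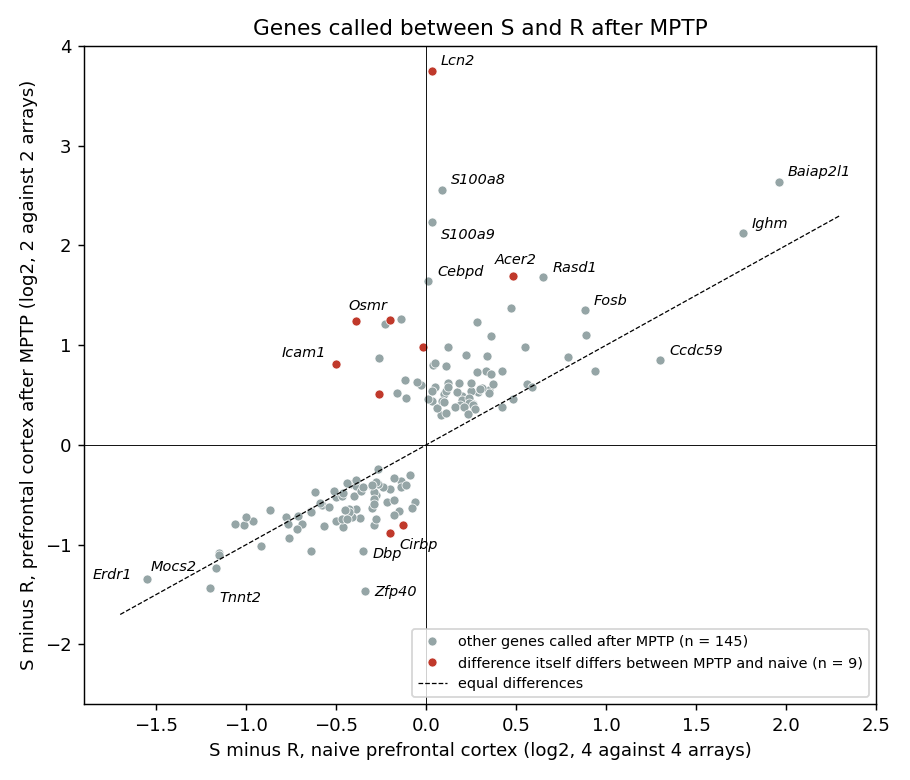
Log2 difference, AChE-S minus AChE-R, of the 154 called genes in the prefrontal cortex after MPTP (vertical axis, 2 arrays each) and in the naive prefrontal cortex (horizontal axis, 4 arrays each), with the dashed line marking equal differences. Red points are the 9 genes whose 2 differences themselves differed at an adjusted p under 0.05. Lcn2 lies at 3.75 after MPTP and 0.03 in naive mice, and Erdr1 at -1.34 and -1.55.

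In the caudate-putamen after MPTP, where AChE-R has 1 array and no test was made, Lcn2, Cirbp and Ifit3 had differences of the same sign. Lcn2 read 8.75 and 9.81 in AChE-S and 6.35 in AChE-R mice, Cirbp 9.16 and 9.21 against 10.02, and Ifit3 6.37 and 6.27 against 7.20. Cd14 differed less there, with 8.07 and 8.76 in AChE-S and 8.20 in AChE-R mice.

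Many called genes differed between the lines without MPTP. The naive comparisons set other arrays against each other than the MPTP one, but they share the lines. Each list below was called in its own contrast of the same model, and these contrasts use the same estimate of spread for a transcript. A transcript with a small spread is more readily called in each of them, so the calls are not independent. The part of this in the overlaps was not tested. The shares of all transcripts or genes given below count calls in either direction, while the overlaps count the same direction. Of the 257 transcripts called after MPTP, 166 (64.6%) were called in the same direction in naive prefrontal cortex, and 3 in the opposite one. They make up 3.94% of the 4210 called there, where 18.6% of all transcripts were called. By gene, 96 of the 154 (62.3%) were called the same way, beside 19.2% of all genes. Without the 6 naive arrays 64 of the 154 (41.6%, and 9.44% of the 678 called there) were, beside 5.47%. In naive caudate-putamen, where 0.773% of all transcripts were called, 65 were called the same way, which is 25.3% of the 257 and 37.1% of the 175 called there, and 2 the opposite way. By gene, where 0.831% were called in naive caudate-putamen, 31 were called the same way in all 3 comparisons, 8 higher and 23 lower in AChE-S.

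Among the largest of these on the lower side were Tnnt2, cardiac troponin T, at 5.61 and 5.39 in AChE-S, 7.07 and 6.78 in AChE-R and 6.65 and 6.80 in FVB/N mice (-1.43 ± 0.15, and -2.97 on its second probe set), and Mocs2, of molybdenum cofactor synthesis, at 9.59 and 9.52 in AChE-S, 10.77 and 10.79 in AChE-R and 10.74 and 10.79 in FVB/N mice (-1.23 ± 0.12). Erdr1 read 11.11 and 10.97 in AChE-S, 12.40 and 12.36 in AChE-R and 12.62 and 12.20 in FVB/N mice (-1.34 ± 0.17). In these 3 genes AChE-S alone was low and FVB/N lay with AChE-R. Gpr137b, a lysosomal membrane protein gene, showed the other arrangement, at 8.89 and 8.87 in AChE-S, 9.57 and 9.76 in AChE-R and 8.76 and 8.73 in FVB/N mice (-0.79 ± 0.13, adjusted p = 0.00258), with AChE-R alone high. Further members lower in all 3 were the dehydrogenase Acad9 (-1.06 ± 0.16), the hexosaminidase Hexdc (-1.01 ± 0.11), the chitinase-like Chil1 (-0.79 ± 0.11) and Phgdh (-0.46 ± 0.09), the first enzyme of serine synthesis. Psat1, the next enzyme of that pathway, was called lower after MPTP (-0.38 ± 0.08) and in naive prefrontal cortex (-0.44). After MPTP, neither the Phgdh nor the Psat1 call held in every fit that left out an array. Their other probe sets were lower too but not called, at -0.33 for Psat1 and at -0.45, -0.27 and -4.65 for Phgdh. Second probe sets disagreed for Acad9 (0.68, adjusted p = 0.0413), for Mocs2 (-0.26, dim at a mean of 6.69) and for Gprc5b, an orphan receptor (-1.10 ± 0.25, against 0.10).

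Ighm, the immunoglobulin mu chain gene, was the largest of the 8 higher ones, at 10.28 and 10.01 in AChE-S, 7.99 and 8.07 in AChE-R and 7.88 and 7.98 in FVB/N mice (2.12 ± 0.29, adjusted p = 0.000691). Of its 11 probe sets, 1 other was called (1.00). Baiap2l1, an actin-binding adaptor gene, read 8.33 and 8.24 in AChE-S, 5.71 and 5.58 in AChE-R and 5.56 and 5.58 in FVB/N mice (2.64 ± 0.64, adjusted p = 0.0473). It was also called in naive prefrontal cortex (1.96), but the MPTP call was lost when any array was left out. Naive FVB/N arrays split on it, with 8.38 and 8.06 in replicates 1 and 2, which belong to the 6 arrays that stood apart, and 5.71 and 5.87 in replicates 3 and 4. In the fit without those 6 the MPTP difference of Baiap2l1 was again 2.64 (adjusted p = 2.22e-10). The line-marking list of 11 transcripts, which was chosen on these same data and is no independent evidence, had 2 higher and 6 lower after MPTP. Gdpd3 read 6.40 and 6.23 in AChE-S, 9.89 and 10.31 in AChE-R and 10.17 and 9.84 in FVB/N mice, and its call depended on the 6 naive arrays (-3.79 ± 1.08, adjusted p = 0.112, and 1.72e-10 without them). Smarcc1 behaved likewise (1.27 ± 0.47, adjusted p = 0.279, and 2.03e-05). Glo1, of methylglyoxal detoxification, was higher in naive AChE-S mice (1.44), at 11.03 to 11.83 in naive AChE-S and 9.24 to 10.51 in naive AChE-R arrays, but after MPTP it read 10.36 and 10.84 in AChE-S, 10.46 and 10.30 in AChE-R and 10.43 and 10.38 in FVB/N mice (0.22 ± 0.23, adjusted p = 0.919). The interaction was not called (-1.22 ± 0.29, adjusted p = 0.138, and 0.0533 without the 6 arrays).

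**Figure D5:**
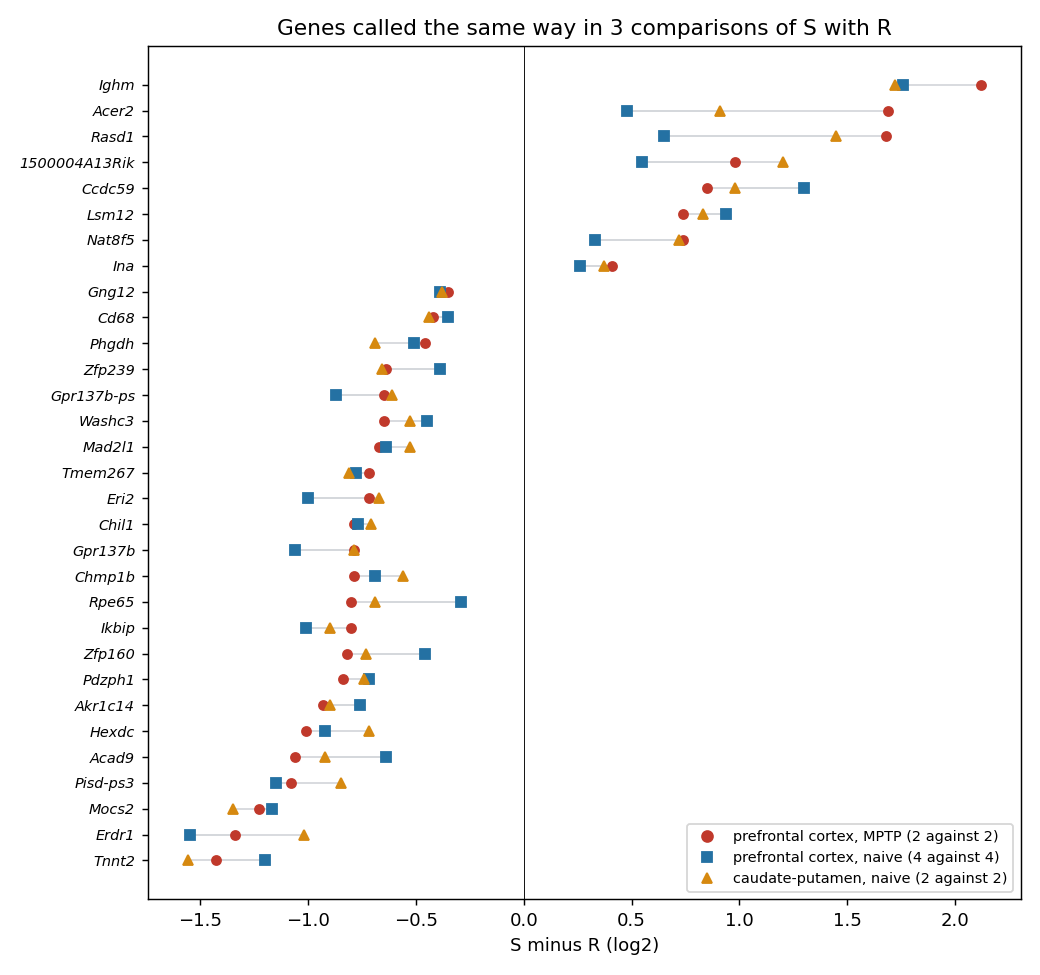
Log2 difference, AChE-S minus AChE-R, of the 31 genes called the same way in the prefrontal cortex after MPTP (circles), the naive prefrontal cortex (squares) and the naive caudate-putamen (triangles). The 8 genes at the top were higher and the 23 below them lower in AChE-S, from Ighm at 2.12 to Tnnt2 at -1.43 after MPTP.

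The position of FVB/N differed among the called genes. The FVB/N mean lay nearer to AChE-S in 36 and nearer to AChE-R in 43 of the 79 higher genes, and in 31 and 44 of the 75 lower ones. In 18 higher and 18 lower genes the S arrays lay outside the FVB/N range while the R arrays overlapped it. In 18 higher and 13 lower genes the R arrays lay outside while the S arrays overlapped. These counts cover called genes only. The same shares over all genes were not computed, and a range of 2 arrays is narrow. By RefSeq order in GRCm38.p6, 29 pairs of called genes had at most 10 measured genes between them, some pairs with opposite signs. Called genes were 154 of the 12377 genes placed, and the number of pairs that spacing alone would give was not computed. The pairs are a description with no test. Zfp40, a zinc finger gene with 5.61 and 5.46 in AChE-S, 6.97 and 7.03 in AChE-R and 6.55 and 6.70 in FVB/N mice (-1.46 ± 0.19), and its neighbour Zfp758 on chromosome 17 were both lower. On chromosome 7, Gprc5b, Eri2 and Tmem159 were lower, with 6 and 2 measured genes between them, and on chromosome 3 the neighbours Acad9 and Anxa5. The adjacent calprotectin genes on chromosome 3 were both higher. Fkbp5 and Cdkn1a, with 9 measured genes between them on chromosome 17, were both higher too.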

How the data were processed

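Total RNA of dissected brain regions was hybridised to 29 Affymetrix arrays. The authors deposited log2 signals per probe set, made with RMA in Affymetrix Power Tools or Affymetrix Expression Console, per the submitters' processing notes, which name these tools without versions. No scanner files were used here, so background and normalization are the authors'. Median log2 signals were 7.61 to 7.78, and 64 control probe sets were left out of 22690. Of the 22626 tested, 20380 had 1 gene symbol, 691 several and 1555 none, and a gene was represented by its brightest probe set over all arrays (12393 genes).

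Arrays were grouped by title. limma 3.58.1 in R 4.3.3 fitted 12 group means and a term for the spelling set of the array titles, and 4 contrasts were adjusted over all 22626 transcripts (Benjamini-Hochberg). Every adjusted p in the text comes from limma. The fit was tested on simulated data. The alternatives were no set term, a replicate block, fewer arrays, each array left out, quantile normalization, a filter on low signals, and trended variance. The crossed block was added after seeing the data. Replicates with the same number did not deviate together (r of -0.12 for S and R, -0.08 for S and FVB/N, -0.16 for R and FVB/N), so the numbers do not pair the arrays.

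The rule for named genes takes the 15 called genes with the largest difference in each direction, fixed cholinergic and marker genes, line-marking transcripts, up to 4 members of each of 28 lists by smallest p, and the 8 smallest interaction p-values (139 genes). Other genes in the text, most of them list members, were singled out after their values were seen. Members and lists were chosen with earlier results of these data known. Promoters and gene order come from RefSeq tables of GRCm38.p6, and 117 of the 154 called genes matched a promoter.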

Additional observations from a re-analysis of the deposited data

Results flagged for a closer look

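The difference between AChE-S and AChE-R mice was itself different after MPTP than in naive prefrontal cortex, by limma's interaction contrast, for 14 genes. The log2 sizes were 3.72 for Lcn2, 1.63 for Osmr, 1.46 for Lrg1, 1.31 for Icam1, 1.21 for Acer2 and 1.00 for Tcim. They were -0.68 for Cirbp and -0.67 for Ifit3, where AChE-S lay further below AChE-R after MPTP.

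The other 6 genes were of several kinds. The chemokine gene Ccl12 had 0.60, the selenoprotein gene Gpx3 0.93, the melanocyte gene Tyrp1 0.77, the transcription factor gene Gabpa 0.68, the fatty acid transporter gene Slc27a3 0.64 and the sodium channel subunit gene Scn3b 0.48. Of these 6, Tyrp1 was also called between the lines after MPTP (0.51).

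In 2 of these genes a naive array stood far from the others of its group. Lrg1 read 7.18 in naive AChE-R replicate 2, against 6.61 to 6.70 in the others, and Scn3b read 11.20 in naive AChE-S replicate 1, against 10.99 to 11.01. Chance flags about 1 in 20 such groups. Both arrays belong to the 6 that stood apart, and without those 6 the interaction was 1.10 for Lrg1 (adjusted p = 0.0575) and 0.40 for Scn3b (adjusted p = 0.0691).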

How the results depend on the processing

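The count of 257 transcripts called after MPTP was 105 with no set term, 170 with prefrontal arrays only and 725 without the 6 naive arrays. A replicate block gave 219, and one with crossed numbers 212. Leaving out 1 array gave 73 to 130. The naive prefrontal count of 4210 was 1704, 2737 and 1084 under those first 3 settings and 2086 to 5409 without 1 array. The naive caudate-putamen count of 175 was 76 with no set term, 341 with caudate-putamen arrays only, 664 without the 6 arrays and 52 to 108 without 1 array. The interaction count of 15 was 1 with no set term, 8 with the block, 6 with prefrontal arrays only, 54 without the 6 arrays, and between 1 (without AChE-R MPTP replicate 1) and 29 (without naive AChE-R replicate 3) without 1 array. Of 84 named called genes, 28 to 45 were still called without 1 of the 4 arrays, 72 with the block, 41 with no set term, 78 with quantile normalization, 81 with trended variance and 84 without the 6 arrays, and none reversed. The differences that reversed were of uncalled genes when 1 array was left out. They ranged from -0.11 to 0.16 for Ache (-0.02 without R 1), -0.08 to 0.18 for Bche, -0.29 to 1.2 for Th, -0.02 to 0.46 for Glo1, -0.08 to 0.31 for Otx2, -0.02 to 0.27 for Gad1, -0.01 to 1.90 for Doc2g, -0.18 to 1.42 for Tbx21, -0.18 to 1.77 for Cdhr1, -0.35 to 0.02 for Ndufa3, -0.35 to 0.05 for Ndufa5, -0.21 to 0.11 for Kdm5d and -0.08 to 0.11 for Xist (-0.03 without R 2). The cause was not tested. With 2 arrays a group, their number limits the precision.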
